A study of Mus musculus with 45 samples.

Results

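Batf, Batf2, Batf3 and Nfil3 encode 4 transcription factors of the basic leucine zipper type. They were chosen by name, and all 4 were found among the 24421 genes of the deposited table and passed the filter on low values. They were followed through 7 groups of 3 RNA-seq libraries from C57BL/6 mouse macrophages, which had been grown from bone marrow in medium conditioned by L929 cells and were used on day 7. The groups were untreated cells, cells given IL-4 (10 ng/ml), cells given IFN-γ (100 ng/ml) and cells given both cytokines, each treatment for 2 h or 4 h. All groups share the strain and the L929-conditioned medium, so the untreated cells are the baseline of that culture rather than cells free of growth factor. Nothing in the labels tells whether the 3 replicates of a group are different mice, different cultures or repeats of one culture. The tests therefore rest on library-to-library variation that could be technical only.

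BATF proteins have a DNA-binding and dimerization region but no large activation domain. They pair with JUN proteins at AP-1 sites, and with IRF4 or IRF8 at composite AP-1 and IRF sites. BATF was studied mostly in T and B cells, BATF3 in the dendritic cells that cross-present antigen, and BATF2 in macrophages, where it is known to associate with IRF1. NFIL3 is mainly a repressor, which binds the same D-box sites as the activators DBP, TEF and HLF of the PAR bZIP group, and is known for its role in natural killer cell development and in the circadian clock. IL-4 signals mainly through STAT6.

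The promoters of members that respond to both cytokines are shown for their base composition and for matches to a few known motifs. RefSeq entries (GRCm38.p6) were matched for Batf, Batf3 and Nfil3, not for Batf2. Each sequence is the stretch upstream of the first annotated coding transcript, on the gene's own strand, and capitals mark a match to the GAS (gamma-activated site) motif.
Batf, chr12:85686470-85686668, plus strand: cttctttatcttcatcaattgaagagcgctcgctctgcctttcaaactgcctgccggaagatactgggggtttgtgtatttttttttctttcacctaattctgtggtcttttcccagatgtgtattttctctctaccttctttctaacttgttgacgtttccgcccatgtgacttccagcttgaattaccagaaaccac
Batf3, chr1:191098164-191098324, plus strand: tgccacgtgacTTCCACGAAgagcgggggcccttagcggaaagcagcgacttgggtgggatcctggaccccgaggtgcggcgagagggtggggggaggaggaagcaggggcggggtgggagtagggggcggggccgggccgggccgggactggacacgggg
Nfil3, chr13:52981074-52981289, minus strand: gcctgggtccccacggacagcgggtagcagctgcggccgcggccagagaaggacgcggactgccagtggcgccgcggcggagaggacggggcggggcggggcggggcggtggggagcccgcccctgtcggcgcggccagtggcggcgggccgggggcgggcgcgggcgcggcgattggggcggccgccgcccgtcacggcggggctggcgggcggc
The 3 stretches differed in composition. The Batf stretch had 42.2% G and C with 5 CpG, the Batf3 stretch 73.3% with 14 CpG, and the Nfil3 stretch 84.7% with 37 CpG. The median over 32851 RefSeq promoters was 52.4%. Both strands were searched for 5 motifs, GAS (TTCNNNGAA), a STAT6-type site (TTCNNNNGAA), an ISRE core (GAAANNGAAA), AP-1 (TGANTCA) and a D-box type site (TTANGTAA). The single match was the GAS letters TTCCACGAA of Batf3 at chr1:191098175-191098183, in a stretch that overlaps an exon of a noncoding Batf3 transcript. Over all promoter windows of RefSeq, 8.3% held the GAS letters, 6.95% the STAT6-type, 3.44% the ISRE, 7.81% the AP-1 and 2.32% the D-box type letters. These windows are longer than the stretches printed above (161 to 216 bases), so the shares are not at equal length. A match is a description of letters and was not tested as a site.

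In GENCODE vM21 (GRCm38), Batf lies at chr12:85686669-85709087 on the plus strand with 1406 bases of merged exons. Batf2 lies at chr19:6140983-6172476 on the plus strand with 2522 bases, and Batf3 at chr1:191097847-191108945 on the plus strand with 1597 bases. Nfil3 lies at chr13:52967209-52981073 on the minus strand with 2026 bases. Batf2 overlaps Arl2, annotated on the opposite strand. On its own strand it overlaps the ribosomal RNA gene n-R5s19 and the processed pseudogene Gm5510. Use of strand in counting is not given in the sources used here, so reads shared by these genes cannot be told apart.

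Libraries held 28920801 to 80028327 assigned reads. Ribosomal RNA precursor (Rn45s) took 0.151%, 43.2% and 15.7% of them in untreated replicates 1, 2 and 3, and levels are therefore given as rescaled CPM, the deposited CPM (a gene's reads relative to all assigned reads of its library) divided by a median-ratio factor per library (0.577 to 1.21). The macrophage markers measured (8 of 8, including Adgre1, Csf1r and Cd68) were all above 1 CPM, with summed levels of 12162 to 39052 deposited CPM. The 7 dendritic cell markers summed to 1.42 to 2.50 CPM in untreated libraries, 2.19 to 3.39 CPM with IL-4 and 3.67 to 6.61 CPM in libraries with IFN-γ. In bulk samples, fewer cells of a type and less RNA per cell cannot be told apart. Replicate numbers marked similar deviations across groups, so the value of a fit with the replicate number as a block is given where it changes the call of a gene named here.

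Batf2 rose with IFN-γ and showed no called change with IL-4. Its levels were 3.85, 4.31 and 3.02 rescaled CPM in untreated replicates 1, 2 and 3. They were 5.23, 6.07 and 3.94 after 2 h of IL-4, and 5.08, 5.18 and 3.88 after 4 h. The IL-4 libraries overlapped the untreated ones at both times, though they were higher in 3 of 3 replicate numbers each time. IFN-γ gave 203, 92.8 and 138 at 2 h, and 594, 188 and 394 at 4 h. With both cytokines they were 162, 78.6 and 120 at 2 h, followed by 312, 180 and 225 at 4 h. Every library that received IFN-γ stood above every library that did not, and replicate 2 was the lowest of its 3 in each of these 4 groups. Overlap of libraries and counts of replicate numbers are descriptions, here and below. Their shares over all tested genes were not counted. The mean went from 3.73 ± 0.65 rescaled CPM (SD, n = 3, as for all means here) in untreated cells to 145 ± 55.5 after 2 h of IFN-γ, which is 38.8-fold, and to 392 ± 203 after 4 h, which is 105-fold.

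Batf3 rose with each cytokine and was highest with both. Untreated replicates 1, 2 and 3 had 1.68, 0.838 and 0.967 rescaled CPM, from 62, 14 and 72 reads. IL-4 gave 22.1, 9.56 and 14.0 at 2 h, and 24.2, 20.2 and 22.2 at 4 h. IFN-γ gave 6.12, 3.49 and 4.71 at 2 h, and 20.1, 7.16 and 11.6 at 4 h. All single-cytokine libraries were above all untreated ones. With both cytokines the levels were 55.8, 38.5 and 45.5 at 2 h, followed by 127, 104 and 101.2 at 4 h. At each time these 3 libraries were above all libraries of either single cytokine. The mean rose from 1.16 ± 0.46 in untreated cells to 22.2 ± 2.00 with IL-4 for 4 h (19.1-fold), 13 ± 6.56 with IFN-γ for 4 h (11.1-fold) and 111 ± 14.3 with both for 4 h (95.4-fold).

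Nfil3 was already high after 2 h of IL-4 and was lower with IFN-γ alone. It had 14.3, 9.82 and 13 rescaled CPM in the untreated replicates. IL-4 gave 148, 119 and 134 at 2 h, followed by 144, 104 and 126 at 4 h. IFN-γ gave 68.1, 50.6 and 49.1 at 2 h, followed by 68.8, 18.1 and 44.3 at 4 h. The IL-4 libraries did not overlap the IFN-γ libraries at either time, and IFN-γ replicate 2 at 4 h was the treated library nearest to the untreated range. Both cytokines together gave 179, 117 and 143 at 2 h, and 165, 128 and 159 at 4 h. These overlapped the IL-4 libraries at both times. The untreated mean of 12.4 ± 2.29 compares with 134 ± 14.4 after 2 h of IL-4 (10.8-fold) and with 55.9 ± 10.5 after 2 h of IFN-γ (4.52-fold).

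Batf had the smallest range over the 7 groups of the 4 genes. Untreated replicates had 3.83, 4.97 and 3.57 rescaled CPM. IL-4 gave 5.94, 8.66 and 5.97 at 2 h, and 8.16, 11.5 and 7.23 at 4 h. IFN-γ gave 9.60, 9.11 and 9.48 at 2 h, and 17.1, 10.4 and 12.8 at 4 h. Every treated library was above every untreated one. Both cytokines gave 15.8, 15.3 and 12.3 at 2 h, followed by 22.7, 24.7 and 15 at 4 h. The mean rose from 4.12 ± 0.75 in untreated cells to 20.8 ± 5.14 with both for 4 h, which is 5.05-fold.

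**Figure D1:**
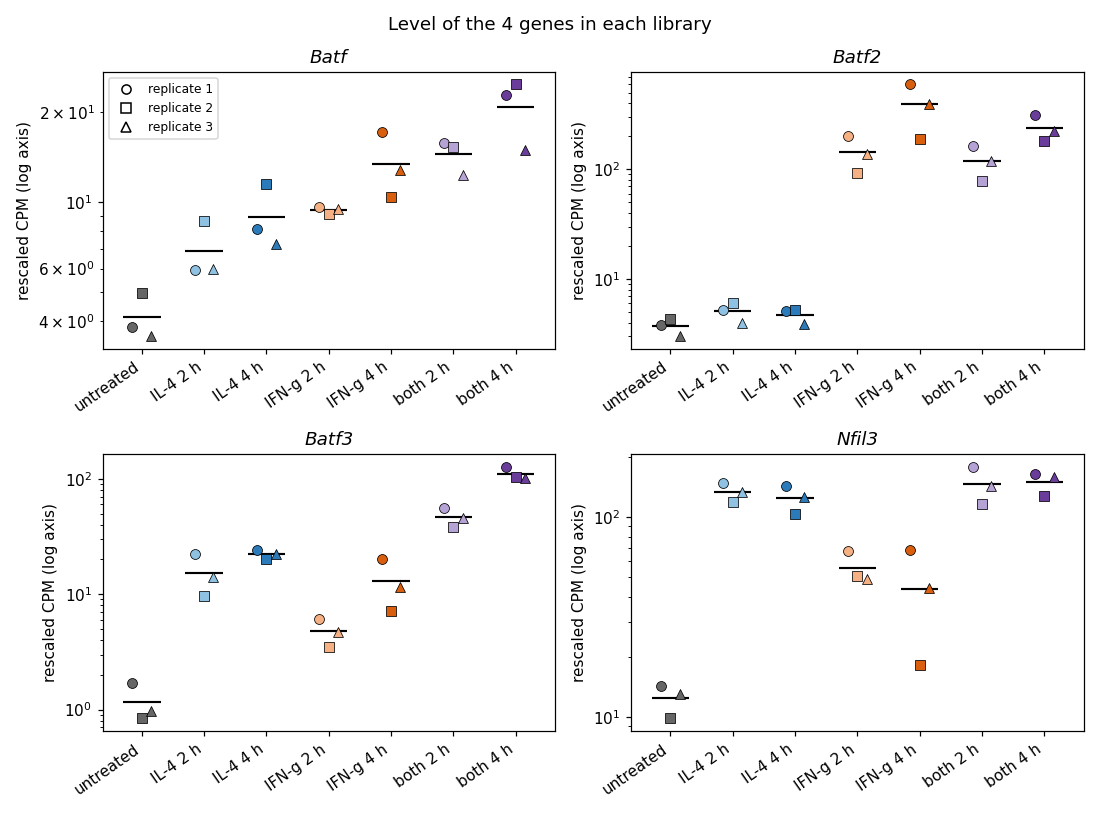
Rescaled CPM (log axis, own range per panel) of Batf, Batf2, Batf3 and Nfil3 in each library of the 7 groups; point shapes mark replicates 1, 2 and 3, and lines mark group means. Batf2 separates libraries with and without IFN-γ, Batf3 is highest with both cytokines for 4 h (101.2 to 127), and Nfil3 is about as high with IL-4 as with both.

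Against untreated cells, the changes were tested with limma on log2(rescaled CPM + 1), across all 11380 tested genes, with Benjamini-Hochberg adjusted p. This scale understates the change of low genes. For Batf3 with both cytokines at 4 h it gave 5.71, whereas edgeR on the recovered reads gave 6.54. The 6 comparisons share the untreated libraries and are therefore not independent of each other. No time is stated for the untreated group, so cytokine and hours in culture cannot be told apart in these comparisons.

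After 2 h of IL-4, Batf3 rose by 2.85 ± 0.30 (log2 change ± SE here and below; adjusted p = 6.9e-06, limma) and Nfil3 by 3.34 ± 0.32 (adjusted p = 2.2e-06, limma). These are 2 of the 4 genes, in a comparison where 5.51% of all tested genes were called higher and 3.11% lower. On the deposited scale, which carries the ribosomal RNA of the untreated libraries, these shares were 16.1% and 0.615%, and the median gene moved by 0.39. Batf differed by 0.61 ± 0.21, which missed the threshold (adjusted p = 0.092, limma) and passed it on the deposited scale (0.97, adjusted p = 0.0071) and with the replicate block (adjusted p = 0.014, when 14% of tested genes were called higher). Batf2 differed by 0.36, with a 95% interval of -0.41 to 1.12. By 4 h of IL-4, 3 of 4 genes had risen, against 12% of all tested genes called higher and 10.1% lower (34.1% and 2.55% on the deposited scale). Batf3 rose by 3.44, Nfil3 by 3.23 and Batf by 0.95 ± 0.21 (adjusted p = 0.0033, limma; 0.059 without replicate 1). The interval for Batf2 was -0.49 to 1.04.

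With IFN-γ all 4 genes rose at both times, against 10.8% of tested genes called higher and 7.1% lower at 2 h (14% and 1.62% deposited). At 4 h these shares were 21.3% and 17.8% (17.7% and 7.64% deposited). Batf2 led with 4.88 ± 0.36 at 2 h (adjusted p = 6.2e-08, limma) and 6.24 ± 0.36 at 4 h (adjusted p = 1.3e-09, limma). Batf3 rose by 1.41 and 2.60, Nfil3 by 2.09 and 1.57, and Batf by 1.03 and 1.48. At 2 h the calls of Batf3 and Batf rested on 3 libraries per group: without replicate 3 their adjusted p was 0.168 and 0.059 (limma), and Batf also missed the threshold without replicate 1 (0.062). With untreated replicate 1, the library with little ribosomal RNA, as the only control, Batf3 at 2 h differed by 1.08 (adjusted p = 0.159, limma). At 4 h, Nfil3 missed the threshold without replicate 3 (adjusted p = 0.070, limma).

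With both cytokines all 4 genes rose at both times, against 12.8% of tested genes called higher and 9.38% lower at 2 h (18.1% and 2.71% deposited). At 4 h these shares were 22.8% and 19.8% (23.7% and 8.46% deposited). At 4 h Batf3 rose by 5.71 ± 0.30 and Batf2 by 5.64 ± 0.36. Nfil3 rose by 3.51 ± 0.32 and Batf by 2.07 ± 0.21, with adjusted p from 3.5e-10 (Batf3) to 5.4e-07 (Batf). These calls held in each alternative that was run.

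**Figure D2:**
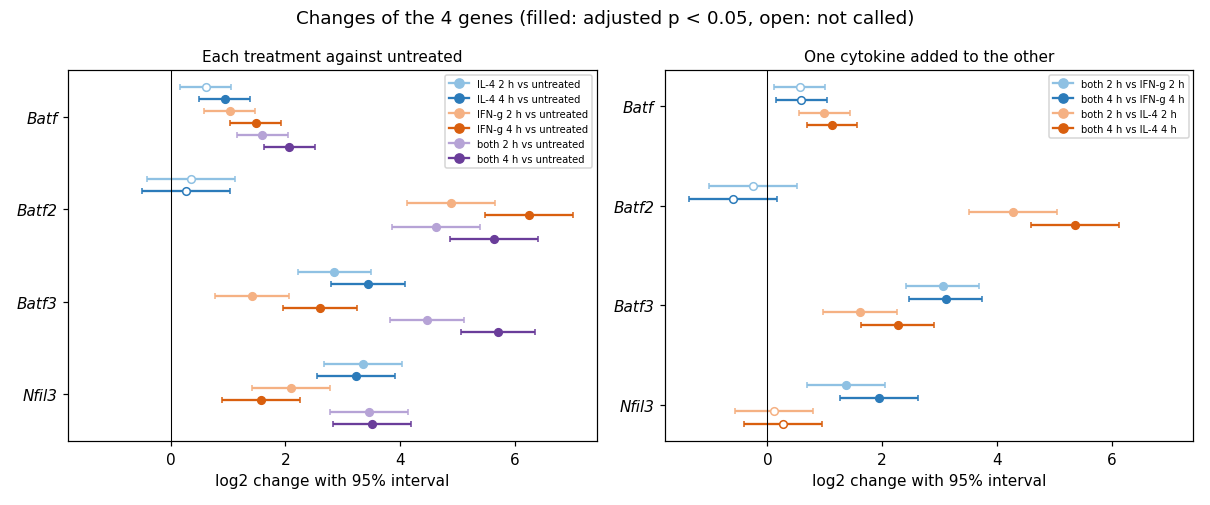
Log2 change on the log2(rescaled CPM + 1) scale with 95% intervals, against untreated cells (left) and of both cytokines against one alone (right); filled points passed an adjusted p of 0.05 in limma and open points did not. Batf3 rises whichever cytokine is added to the other, Batf2 rises when IFN-γ is added to IL-4 and Nfil3 when IL-4 is added to IFN-γ.

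Adding IL-4 to IFN-γ raised Batf3 and Nfil3. Batf3 rose by 3.05 ± 0.30 at 2 h (adjusted p = 9.6e-06, limma) and by 3.10 ± 0.30 at 4 h (adjusted p = 2.6e-06, limma), higher in 3 of 3 replicate numbers each time. Nfil3 rose by 1.37 ± 0.32 at 2 h (adjusted p = 0.025, limma) and 1.94 ± 0.32 at 4 h (adjusted p = 5.3e-04, limma). The 2 genes called stand against 2.22% of tested genes called higher and 0.782% lower at 2 h (1.42% and 0.237% deposited), and 5.9% higher and 5.98% lower at 4 h (3.93% and 2.21% deposited). The Nfil3 call at 2 h was lost without replicate 1 or 3 of all groups, without IFN-γ replicate 2 or 3, and without replicate 1 or 3 of both cytokines (adjusted p 0.082 to 0.801). The one at 4 h was lost without replicate 3 (0.081) and when only the 2 groups were fitted (0.062).

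Batf2 was lower with both cytokines than with IFN-γ alone in 3 of 3 replicate numbers at each time, and the difference was not called. It was -0.25 (95% interval -1.02 to 0.51) at 2 h and -0.60 (-1.37 to 0.17; adjusted p = 0.38, limma) at 4 h. Without IFN-γ replicate 2 at 4 h it was -1.05 (adjusted p = 0.044, limma). Batf was 0.57 and 0.59 higher with both, which passed only with the replicate block (adjusted p = 0.042 at 2 h and 0.013 at 4 h, when 5.87% and 13.8% of tested genes were called higher) and, at 4 h, without IFN-γ replicate 1 or without replicate 3 of both cytokines (0.040 and 0.024).

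Adding IFN-γ to IL-4 raised 3 of the 4 genes at each time, against 8.68% of tested genes called higher and 6.13% lower at 2 h (4.95% and 3.32% deposited), and 15.7% higher and 15.2% lower at 4 h (8.59% and 18.5% deposited). Batf2 rose by 4.27 and 5.36, and Batf3 by 1.61 ± 0.30 (adjusted p = 0.0013, limma) and 2.27 ± 0.30 (adjusted p = 2.3e-05, limma). Batf rose by 0.99 and 1.12. Nfil3 differed by 0.11 (95% interval -0.57 to 0.79) at 2 h and 0.28 (-0.40 to 0.96) at 4 h. At 2 h, Batf3 missed the threshold without replicate 3 (adjusted p = 0.122), and Batf without replicate 1 (0.136) or 3 (0.057).

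IL-4 and IFN-γ alone were also set against each other, and 3 of the 4 genes were called each time. Of all tested genes, 9.02% were called higher with IL-4 and 10.4% lower at 2 h (6.35% and 6.21% deposited), and 20.3% and 21.6% at 4 h (30.4% and 11.1% deposited). Batf2 was lower with IL-4, with differences of -4.53 and -5.96. Nfil3 was 1.25 ± 0.32 higher with IL-4 at 2 h (adjusted p = 0.0092, limma) and 1.66 ± 0.32 higher at 4 h (adjusted p = 4.7e-04, limma). Batf3 was 1.44 ± 0.30 higher with IL-4 at 2 h (adjusted p = 0.0022, limma). At 4 h the Batf3 difference was 0.84 ± 0.30 (adjusted p = 0.036, limma). It was not called by edgeR (adjusted p = 0.067), with no filter (0.057) or with only the groups compared (0.096), nor without any single IL-4 library (0.053 to 0.097), IFN-γ replicate 3 (0.081), or replicate 2 (0.124) or 3 (0.285) of all groups. Without IFN-γ replicate 2 the difference was 0.50 (adjusted p = 0.194, limma). Without replicate 3 of all groups, Batf3 and Nfil3 missed the threshold at 2 h (0.124 and 0.265). The difference in Batf at 4 h was -0.53, and it just missed the threshold (adjusted p = 0.0501, limma). It passed with the replicate block (0.011, when 31.4% of tested genes were called lower), and also without replicate 2 of all groups (-0.87) or of either group alone (-0.71 and -0.69).

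Between 2 h and 4 h, Batf3 rose with IFN-γ by 1.19 ± 0.30 (adjusted p = 0.012, limma) and with both cytokines by 1.24 ± 0.30 (adjusted p = 0.0085, limma), and Batf2 rose with IFN-γ by 1.35 ± 0.36 (adjusted p = 0.016, limma). The Batf2 call was lost with only the groups compared (0.147), without replicate 1 (0.083) or 3 (0.292) of all groups, without replicate 2 of IFN-γ at 2 h (0.078), and without replicate 1 (0.0995; difference 0.98) or 3 (0.056) of IFN-γ at 4 h. The Batf3 call with IFN-γ was lost with only the groups compared (0.112), without replicate 3 of all groups (0.244), without replicate 2 at 2 h (0.054) and without replicate 1 at 4 h (0.076), and that with both cytokines without replicate 3 of all groups (0.195). Of the 4 genes, 2 were thus called with IFN-γ, against 9.89% of tested genes called higher and 7.77% lower (3.15% and 4.89% deposited), and 1 with both, against 9.41% and 8.89% (3.31% and 5.15% deposited). With IL-4 none of the 4 was called by limma, against 1.27% of tested genes called higher and 1.55% lower (0.439% and 0.22% deposited). None of the 4 had an unadjusted p under 0.05, and edgeR called none. With the replicate block, Batf3 was called with IL-4 (0.59, adjusted p = 0.014), Batf with IFN-γ (0.45, adjusted p = 0.040) and with both (0.47, adjusted p = 0.031), Batf2 with both (1.01, adjusted p = 0.0064) and Nfil3 with IFN-γ (-0.52, adjusted p = 0.049). In the fit without the block, the Nfil3 difference was -0.0013 without IFN-γ replicate 2 at 4 h and -0.94 (adjusted p = 0.046, limma) without replicate 1 at 4 h. The fit with the block called 9.1% of tested genes higher with IL-4, 23.2% higher and 22.1% lower with IFN-γ, and 23% higher with both. Nfil3 with both cytokines differed by 0.05 between the times. The effect of adding IL-4 to IFN-γ was called different between the times by limma for 0 of the 4 genes (0 with an unadjusted p under 0.05, 0 called by edgeR), against 0.36% of tested genes called in either direction. For the effect of adding IFN-γ to IL-4, limma and edgeR also called 0 of 4 (Batf2 had an unadjusted p of 0.049), against 1.98% of tested genes higher and 0.914% lower. It was 0.66 larger for Batf3 at 4 h than at 2 h, which was called with the replicate block (adjusted p = 0.044, when 11.5% of tested genes were called higher).

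The design also asks whether the combination differs from the sum of the single responses. On the log scale no interaction was called for the 4 genes by limma, against 0.0791% of tested genes called positive and 0.29% negative at 2 h (0.00879% and 0.387% deposited), and 0.738% and 0.967% at 4 h (0.0703% and 1.56% deposited). For Batf3 the interaction was 0.20 (95% interval -0.71 to 1.11) at 2 h and -0.34 (-1.25 to 0.57) at 4 h, so its change with both cytokines lay near the sum of its log2 changes, though the untreated level of Batf3 is close to the pseudocount; edgeR on reads gave -0.39 and -1.11 (adjusted p = 1 and 0.42). For Nfil3 it was -1.98 ± 0.45 at 2 h (adjusted p = 0.083, limma) and -1.29 ± 0.45 at 4 h (adjusted p = 0.22, limma), and it was called with the replicate block (adjusted p = 7.3e-04 and 0.0065, when 1.91% and 8.66% of tested genes were called negative). Nfil3 was the 1 gene of the 4 with an unadjusted p under 0.05 for the interaction, at both times, and edgeR called none. For Nfil3 at 2 h the deposited scale also called it (-2.36, adjusted p = 0.015, limma). So did the fits with only the groups compared (0.0145) and without replicate 2 of all groups (0.026). At 4 h it was called without replicate 2 of all groups (0.012) or without IFN-γ replicate 2 alone (-1.81, adjusted p = 0.0026, limma). The other fits that left out libraries did not call it.

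On the linear scale, a comparison chosen after seeing the data, the level with both cytokines was divided by IL-4 plus IFN-γ minus untreated within each replicate number. For Batf3 this ratio was 2.61 ± 0.53 at 2 h (2.1 to 3.15) and 3.33 ± 0.52 at 4 h (2.99 to 3.93), above 1 in 3 of 3 replicate numbers each time. The ratio for Batf2 was 0.829 ± 0.036 at 2 h and 0.682 ± 0.236 at 4 h, below 1 in 3 of 3. For Batf it was 1.19 ± 0.15 and 1.14 ± 0.29, and for Nfil3 0.820 ± 0.081 and 0.994 ± 0.155. With 3 ratios per time no p-value is given. The ratio was computed for the 4 genes only, so the share of all tested genes with such ratios is not known. Ratios at 2 h and 4 h share the untreated libraries and are not independent.

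**Figure D3:**
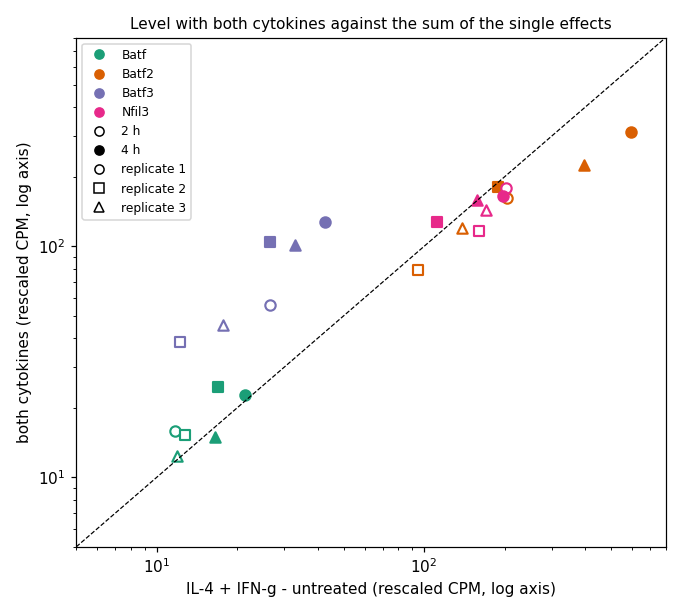
Rescaled CPM with both cytokines (vertical log axis) against IL-4 plus IFN-γ minus untreated (horizontal log axis) for each replicate number; open points are 2 h, filled points 4 h, shapes mark replicates and the dashed line marks equality. All 6 Batf3 points lie above the line and all 6 Batf2 points below it, and points of 2 h and 4 h share the untreated libraries.

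The order of the groups differed between the genes. From high to low, Batf2 ran from IFN-γ 4 h through both 4 h, IFN-γ 2 h and both 2 h to IL-4 2 h, IL-4 4 h and untreated. Of these 6 neighbouring pairs, the step from both 2 h to IL-4 2 h was called. Batf3 ran from both 4 h through both 2 h, IL-4 4 h, IL-4 2 h, IFN-γ 4 h and IFN-γ 2 h to untreated, with called steps except between IL-4 4 h and IL-4 2 h (0.59, adjusted p = 0.44, limma) and between IL-4 2 h and IFN-γ 4 h (0.25, adjusted p = 0.58, limma). Nfil3 ran from both 4 h through both 2 h, IL-4 2 h, IL-4 4 h, IFN-γ 2 h and IFN-γ 4 h to untreated, with called steps from IL-4 4 h to IFN-γ 2 h (1.14, adjusted p = 0.012, limma) and from IFN-γ 4 h to untreated. Batf ran from both 4 h through both 2 h, IFN-γ 4 h, IFN-γ 2 h, IL-4 4 h and IL-4 2 h to untreated, and no neighbouring step was called.

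Set per kilobase of merged exon, the 3 BATF genes changed places as the most abundant. In untreated cells Batf held 57.0% ± 5.13 of their summed level, Batf2 28.7% ± 1.03 and Batf3 14.3% ± 5.39. IL-4 for 4 h gave Batf3 a share of 62.9% ± 6.68. IFN-γ for 4 h gave Batf2 89.1% ± 2.46 and Batf3 4.75% ± 0.50. With both for 4 h, Batf2 held 52.4% ± 5.36 and Batf3 39.1% ± 2.99, while the sum was 179 ± 35.4 rescaled CPM per kilobase, against 173 ± 87.0 with IFN-γ for 4 h and 5.14 ± 0.73 untreated. With the length of the longest coding transcript instead, Batf3 held 68.5% after 4 h of IL-4 and 42.1% with both for 4 h. The gene with the largest mean share was the same in each group. Single libraries could differ from the mean. In replicate 2 of IL-4 for 2 h, Batf held 42.3% and Batf3 41.1% by merged exons. In replicate 2 of both for 4 h, Batf3 held 45.55% and Batf2 45.37% by coding transcript.

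**Figure D4:**
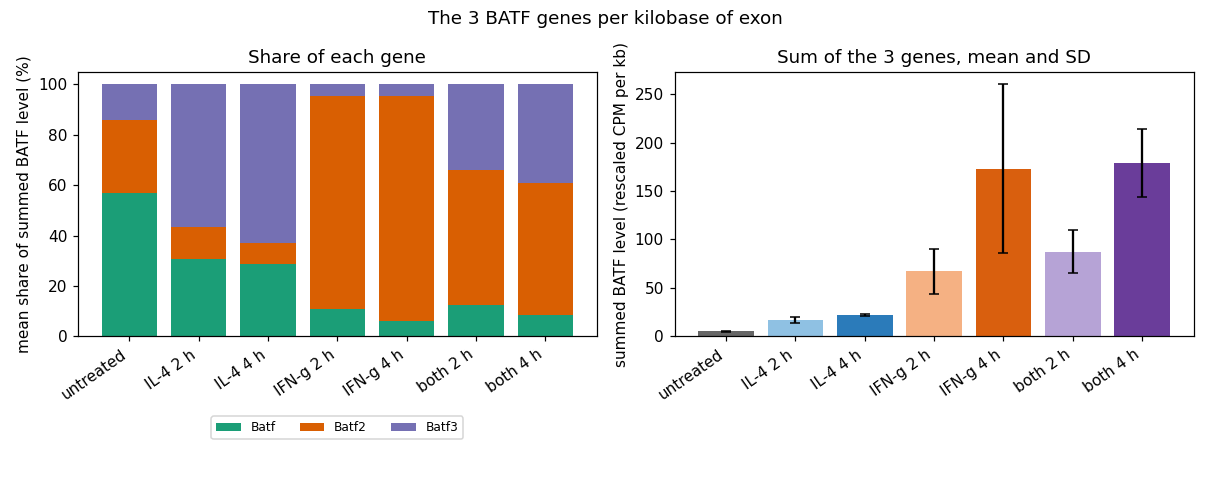
Left, mean share (%) of Batf, Batf2 and Batf3 in their summed level per kilobase of merged exon in each group of 3 libraries; right, the summed level (rescaled CPM per kilobase, mean with SD bars). Batf has the largest mean share in untreated cells, Batf3 with IL-4 and Batf2 in the 4 groups with IFN-γ.

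The known partners of BATF proteins were followed as a list of 6 (Jun, Junb, Jund, Irf1, Irf4, Irf8), all of them tested. With both cytokines for 4 h, 6 of 6 rose, against 22.8% of tested genes called higher (23.7% deposited), with a median log2 change of 2.03 against 0.00 over all tested genes. Irf1, which BATF2 associates with, rose by 4.70 ± 0.28 from 93.4 to 2425 rescaled CPM. Irf4, a partner of BATF and BATF3 in lymphocytes and dendritic cells, rose by 4.21 ± 0.31 from 4.97 to 115 rescaled CPM, and Irf8 by 2.49 ± 0.27. The fourth largest change was that of Jund, 1.57 ± 0.41. The IRF genes divided by cytokine. IL-4 for 4 h raised Irf4 by 3.48 and Irf1 by 0.97. Jun fell by 1.53 on the log2 scale (-1.06 on the deposited scale, adjusted p = 0.072), and Irf8 differed by -0.12 and Junb by -0.62, neither called. After 4 h of IFN-γ, Irf1 rose by 4.92, Irf8 by 2.94 and Junb by 2.54, while Irf4 differed by -0.55 and Jun by 0.89, both called only with the replicate block (adjusted p = 0.011 and 7.7e-04, limma, when 30.8% of tested genes were called lower and 32.5% higher). Adding IL-4 to IFN-γ at 4 h raised Irf4 by 4.75 ± 0.31 and lowered Junb by -1.38 ± 0.38 (adjusted p = 0.022, limma; 0.077 deposited).

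Other AP-1 and ATF relatives that can pair with JUN or BATF proteins showed no common direction. Of 6 listed, 4 were tested, and Fosb and Fosl1 stayed at or below 0.175 CPM. With both cytokines for 4 h, Atf3 rose by 2.09, Jdp2 by 1.62 and Fosl2 by 1.21, and Fos fell by 1.98 on the log2 scale. With IL-4 for 4 h Fos fell by 2.25 on the log2 scale. With IFN-γ for 4 h Fos differed by 0.02 and was not called, while Atf3 rose by 1.47 and Jdp2 by 1.23.

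Genes of the PAR bZIP group and the circadian clock, which include those that share D-box sites with NFIL3, were mostly lower than untreated where IFN-γ was present. As the untreated group has no stated time, treatment and hour of harvest cannot be told apart in these changes. Of 16 listed, 15 were tested, and Hlf stayed at or below 0.149 CPM. After 4 h of IFN-γ, 11 of 15 fell and 1 rose, with a median of -0.94 against 0.00 over all tested genes, of which 17.8% were called lower. On the deposited scale 8 fell and 1 rose, against 7.64% of tested genes called lower and 17.7% higher. Dbp fell by 2.21, Bhlhe41 by 2.1, Nr1d1 by 1.89 and Rora by 1.67 on the log2 scale, and Clock was not called (0.15). Bhlhe40 differed by -0.94 and was called only with the replicate block (adjusted p = 3.2e-05, limma). With both cytokines for 4 h, 10 fell and 1, Cry1, rose, against 19.8% of tested genes called lower and 22.8% higher. The deposited scale gave 9 and 1, against 8.46% called lower and 23.7% higher. After 4 h of IL-4, 3 fell and 2 rose, against 10.1% of tested genes called lower and 12% higher, with a median of -0.29. With the replicate block 8 fell and 2 rose, when 23.6% of tested genes were called lower and 23.9% higher. On the deposited scale 2 fell and 2 rose, when 2.55% of tested genes were called lower and 34.1% higher. The list median there was 0.08, against 0.425 over all tested genes (-0.0061 after rescaling). The sign of the list median with IL-4 thus depends on the scaling. On both scales it lay below the median of all tested genes. Tef, a PAR bZIP activator, was lower by 1.42 ± 0.14 on the log2 scale with IFN-γ at 4 h. With IL-4 it differed by -0.29 and was called only with the replicate block (adjusted p = 0.0061, limma). A link between the genes of this list and the level of Nfil3 was not tested.

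Genes that BATF2 and IRF1 are known to act on together in macrophages were a list of 4, of which 3 were tested. After 4 h of IFN-γ, 3 of 3 rose, against 21.3% of tested genes called higher (17.7% deposited): Nos2, the inducible nitric oxide synthase, to 99.4 rescaled CPM from 0.0362, Tnf to 733 from 10.4 and Ccl5 to 99.9 from 7.31. With both cytokines for 4 h they had 5.14, 35.3 and 6.80 rescaled CPM. Adding IL-4 to IFN-γ at 4 h lowered 3 of 3, against 5.98% of tested genes called lower. Tnf differed by -4.21 ± 0.55, Nos2 by -3.93 ± 0.29 and Ccl5 by -3.56 ± 0.78. Batf2 and Irf1 differed by -0.60 and -0.22 and were not called. Without IFN-γ replicate 2 at 4 h, Batf2 was called lower (-1.05, adjusted p = 0.0445, limma). A link between Batf2 or Irf1 and these 3 genes was not tested.

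**Figure D5:**
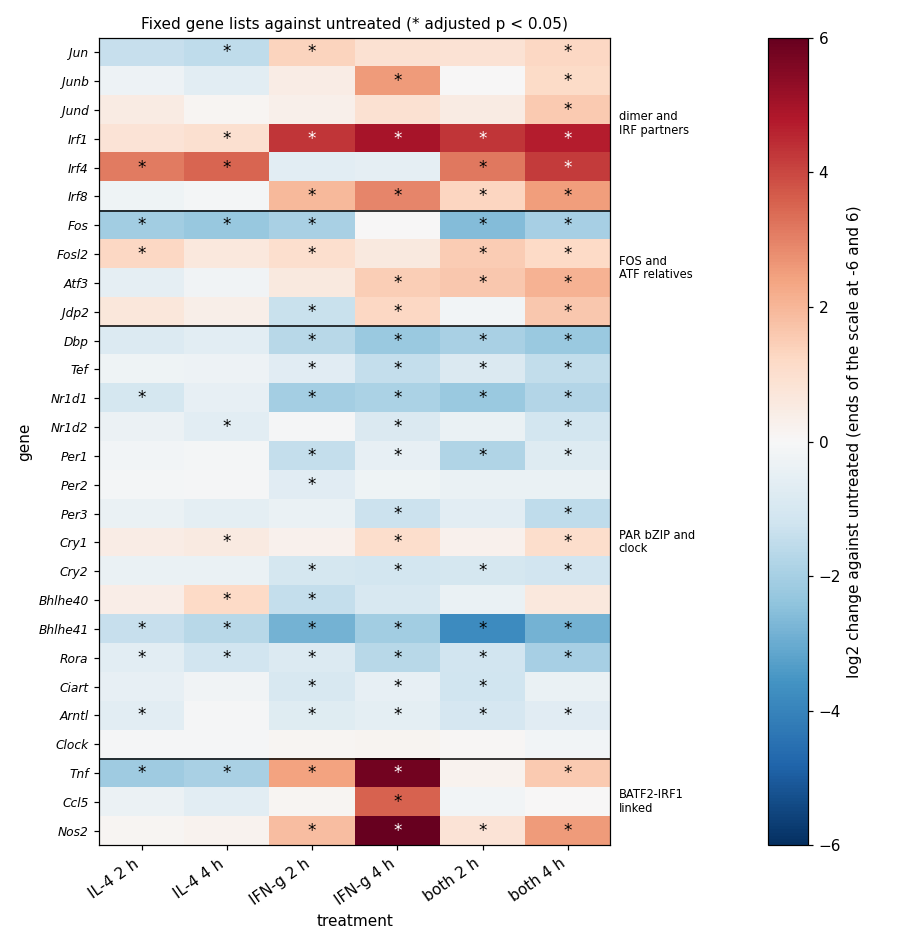
Log2 change against untreated (colour, scale ends at -6 and 6; the Nos2 value of 6.47 with IFN-γ at 4 h lies past the end) of the tested genes of 4 lists under each treatment; stars mark an adjusted p under 0.05 in limma. Irf4 is high in the groups with IL-4 and Irf1 and Irf8 in those with IFN-γ, and clock genes are mostly lower with IFN-γ.

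The genes whose 7 group means ran most like each member were taken from 959 tested genes that spanned at least 2 log2 units. The 4 members and genes with provisional names (Gm with digits, or ending in Rik) were left out of the 959, and ranks hold within these. Correlations are descriptions over 7 group means that share libraries and scaling. Batf was most like Gatm (r = 0.995), a creatine synthesis enzyme, then Ikzf2, Dok2, Ccl8 and Ptpn2. Batf2 was most like Themis2 (r = 0.999), then Parp14, Fam26f and the IFN-inducible GTPases Iigp1 and Tgtp2. Themis2 had 116 rescaled CPM untreated, 1102 with IFN-γ for 4 h and 868 with both for 4 h. Nfil3 was most like Tiam1 (r = 0.989), then Ccl7, Cish, Hbegf and Dhrs9. Cish, an inhibitor of cytokine signalling, had 0.720 rescaled CPM untreated, 58.9 after 2 h of IL-4, 32.0 after 2 h of IFN-γ and 139 with both for 4 h. Over the 7 means Batf3 had less close neighbours, Vegfc (r = 0.969), Rras2, Pop4, Nabp1 and Snx2. Over the 21 single libraries r was 0.755 for Batf3 with Vegfc, where Vegfc ranked 75, and 0.923 with Pop4 (rank 2). For Nfil3 it was 0.627 with Dhrs9 (rank 123), 0.798 with Ccl7 (rank 42) and 0.9555 with Cish (rank 1). Among the 4 genes, r over the 7 means was 0.859 for Batf3 with Nfil3, 0.855 for Batf3 with Batf, 0.826 for Batf with Batf2 and 0.169 for Nfil3 with Batf2.

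Markers of the cell types in which these factors are best known (dendritic, natural killer, T and B cells) stayed below each macrophage marker measured. Some of them, such as Cd4, Lck and Klrk1, reached the levels of Batf or Batf3. Among the dendritic cell markers, Clec9a had 0.328 deposited CPM untreated, 2.78 with IFN-γ for 4 h and 1.67 with both for 4 h, and Zbtb46 at most 0.727 in any library. The summed dendritic list was 2.41 to 3.39 CPM after 4 h of IL-4 and 4.29 to 6.61 CPM after 4 h of IFN-γ. The 5 natural killer cell markers summed to 0.104 to 0.835 CPM without IFN-γ and to 2.19 to 28.8 CPM with it, with 21.7 CPM of Klrk1 on average after 4 h of IFN-γ and of Ncr1 at most 0.0263 CPM. The T cell list (6 markers) summed to 3.32 to 31.0 CPM, of which Cd4 averaged 15.6 CPM untreated and 9.41 CPM with both for 4 h and reached 27.8 CPM in one library, Cd3e was at most 0.0491 CPM and Lck averaged 0.264 CPM untreated and 12.4 CPM with both for 4 h. The B cell list (5) summed to 1.97 to 13.7 CPM, and Pax5 was at 0 in all 21 libraries. Neutrophil markers (4 measured) summed to 49.1 to 181 CPM and fibroblast markers (5) to 3.73 to 18.9 CPM. The part of these markers in the changes of the 4 genes was not tested.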

How the data were processed

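The deposited table gives CPM for 24421 genes in 21 libraries. Per the submitters' processing notes the authors used TopHat2 2.1.0, HTSeq and edgeR with the mouse build mm10 (GRCm38); further settings are not given in the sources used here. All values (100%) were whole multiples of 1 read within 0.01 read, and recovered totals ran from 28920801 to 80028327 reads. Another 24 samples of the series are not analysed here.

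Deposited CPM was divided by median-ratio factors, taken as log2(value + 1) and, for the 11380 genes reaching 1 CPM in 3 or more libraries, fitted by limma 3.58.1 under R 4.3.3 (7 group means, trend). P-values were adjusted by Benjamini-Hochberg within each of 19 contrasts, and calls were made at 0.05. Alternatives were the deposited scale, edgeR 4.0.16 on recovered reads, a pseudocount of 0.25, no filter, the replicate block, only the groups compared, and libraries left out. The limma step was tested on simulated data. Libraries with the same replicate number deviated together (63 pairs, r 0.54 to 0.95; 126 other pairs, r -0.86 to 0.37), so the numbers pair the samples on this data check. The SE, intervals and values with libraries left out are nonetheless of fits without the block. With it, the SE of both cytokines at 4 h against untreated was smaller. It was 0.16 in place of 0.30 for Batf3, and 0.21 in place of 0.32 for Nfil3. For Batf2 it was 0.27 in place of 0.36, and for Batf 0.17 in place of 0.21.

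Named genes were the 4 members, up to 4 called and 2 uncalled genes of each list in the contrasts described, and 5 like genes per member; marker genes, Cry1, and Tef, Irf1 and Fos where they were named beside another gene, were added after their values were seen. The members and lists were chosen with earlier results of these data known.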

Additional observations from a re-analysis of the deposited data

Results flagged for a closer look

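For 3 results the level differed between the times of one treatment by a test of that difference. Batf2 was 1.35 higher on the log2 scale after 4 h than after 2 h of IFN-γ, higher in 3 of 3 replicate numbers, though the libraries of the 2 times overlapped. Batf3 was 1.19 higher after 4 h of IFN-γ and 1.24 higher after 4 h of both cytokines, each in 3 of 3 replicate numbers and without overlap. With only the groups compared in the fit, the IFN-γ differences of Batf2 and Batf3 missed the threshold (limma adjusted p = 0.147 and 0.112). No group of 3 libraries was tested for outlying samples.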

How the results depend on the processing

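Over 76 results of the 4 genes under the alternatives, 1268 values were computed, of which 1164 kept their direction and side of the threshold, 40 lost a call, 30 gained one and 34 changed direction, the last in 12 results that were called neither way. Among these, the deposited scale gave -0.061 for Nfil3 between the times of both cytokines, -0.027 for the Batf3 interaction at 2 h and -0.017 for Batf in the change over time of adding IFN-γ to IL-4. For the Batf3 interaction at 2 h, edgeR gave -0.39 and a pseudocount of 0.25 gave -0.18, and for Batf3 in the change over time of adding IL-4 to IFN-γ they gave -0.17 and -0.051. Leaving out libraries gave -0.54 to 0.026 for Batf2 with both against IFN-γ at 2 h, -0.041 to 0.26 for Nfil3 with both against IL-4 at 2 h, -0.22 to 0.034 for Batf2 and -0.22 to 0.012 for Nfil3 between the times of IL-4, and -0.099 to 0.21 for Nfil3 between those of both. It gave -0.074 to 0.49 for the Batf3 and -0.16 to 0.12 for the Batf interaction at 2 h, and -0.67 to 0.015 for the Batf3 interaction at 4 h. For the change over time of adding IL-4 to IFN-γ it gave -0.28 to 0.40 for Batf3, -0.21 to 0.23 for Batf and -0.80 to 0.028 for Batf2, and for that of adding IFN-γ to IL-4 -0.021 to 0.35 for Batf. The numbers of the 4 genes called moved as follows. With the replicate block, 1 in place of 0 was called between 4 h and 2 h of IL-4, 4 in place of 2 for IFN-γ and 3 in place of 1 for both; 1 in place of 0 for the interaction at 2 h and at 4 h, and 1 in place of 0 for the change over time in the effect of adding IFN-γ to IL-4. With only the groups compared, 0 were called between the times of IFN-γ, 1 for both against IFN-γ at 4 h and 1 for the interaction at 2 h, and the deposited scale also gave 1 for the interaction at 2 h. Leaving out libraries gave 2 to 3 for IL-4 at 4 h, 2 to 4 for IFN-γ at 2 h and 3 to 4 at 4 h against untreated; 1 to 2 for both against IFN-γ at 2 h and 1 to 3 at 4 h; 1 to 3 for both against IL-4 at 2 h; 1 to 4 for IL-4 against IFN-γ at 2 h and 2 to 3 at 4 h; 0 to 3 between the times of IFN-γ and 0 to 2 between those of both; and 0 to 1 for each interaction. For the 4 genes, the replicate block changed no other call than those given beside the results. The causes were not tested. Depth limits Batf3 in untreated cells most, at 14 to 72 reads.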
